A study of Mus musculus with 2 samples.

Results

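The cell cycle genes examined here were 36 named genes of the mouse, of 55487 genes in the deposited matrix, and all 36 were present in it. They were taken by name from a list and fall into 12 S-phase genes and 24 mitotic genes. The S-phase genes were Tyms, Rrm1, Rrm2, Tk1, Pclaf, Pcna and Mcm2 to Mcm7. The mitotic genes were Mki67, Top2a, Birc5, Cdk1, Ube2c, Cenpf, Ccnb1, Ccna2, Ccnb2, Aurka, Aurkb, Bub1, Bub1b, Plk1, Tpx2, Kif11, Kif20a, Kif23, Cdc20, Cenpe, Cenpa, Nusap1, Prc1 and Hmgb2. The study profiled single thymic epithelial cells of 3 mouse strains, C57BL/6 (B6), BALB/c and NOD, with 2 animals each, all female, 6 weeks old, and with no treatment named. NOD is a strain that develops autoimmune diabetes, and B6 and BALB/c are common laboratory strains without it. Leukocytes with CD45 were depleted, and medullary thymic epithelial cells (mTEC) with low MHC class II, Pdpn and CD104 negative, were sorted, tagged with 1 hashtag antibody per mouse, and captured together in a single droplet library. All 6 mice therefore share 1 pool and 1 capture, and p-values below measure the spread between these mice only. An exception is a limma voom fit between strains, given below, which counted several sums of the same mouse.

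A cell that divides first copies its DNA in S phase and then separates the copies in mitosis. Nucleotide synthesis enzymes and the MCM helicase are made for the first step, and cyclins, mitotic kinases, kinesin motors and kinetochore proteins for the second. In the thymic medulla, mTEC that carry the transcription regulator Aire display genes of other tissues to developing T cells, and mimetic cells are later mTEC that resemble tuft, ciliated, keratinocyte, neuroendocrine and other cells. Promoters of mitotic genes are known for a CHR element beside CCAAT boxes, read by the DREAM, B-Myb and FoxM1 complexes and by NF-Y, and those of S-phase genes for E2F elements.

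RefSeq promoters of build GRCm38.p6 were found for 31 of the 36 genes, and Kif20a, Mcm4, Aurkb, Tpx2 and Ccna2 had none in the table used. The 31 genes had 33 windows, 12 of S-phase and 21 of mitotic genes. The CHR letters TTTGAA or TTCGAA stood within 250 bases before the start, on either strand, in 10 of 21 mitotic promoters (47.6%) and 2 of 12 S-phase promoters (16.7%), against 17.1% of all 32851 promoters. The CCAAT letters stood in 19 of 21 mitotic promoters (90.5%) and 10 of 12 S-phase promoters (83.3%), against 33.8% of all. The E2F letters TTCCCGC or TTGGCGC stood in 5 of 12 S-phase promoters (41.7%) and 3 of 21 mitotic ones (14.3%), against 5.62% of all. A TTGGCGC match preceded by A also counts as a CCAAT match on the other strand. These are matches of letters, not measured sites. The 4 windows below belong to the 2 S-phase and 2 mitotic genes with the highest level in Aire-bearing cells among those whose window lies outside the annotated gene. They are shown as examples of where these letters stand in single genes, and do not stand for the shares above. Each is 5′ to 3′ on the gene's strand and ends at the base before the start, with CHR, CCAAT and E2F matches of either strand in capitals.
Tyms: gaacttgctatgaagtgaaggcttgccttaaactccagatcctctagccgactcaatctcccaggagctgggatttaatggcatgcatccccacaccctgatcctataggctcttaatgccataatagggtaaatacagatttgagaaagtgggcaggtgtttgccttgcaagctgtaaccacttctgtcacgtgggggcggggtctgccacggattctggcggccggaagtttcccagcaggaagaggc
Mcm6: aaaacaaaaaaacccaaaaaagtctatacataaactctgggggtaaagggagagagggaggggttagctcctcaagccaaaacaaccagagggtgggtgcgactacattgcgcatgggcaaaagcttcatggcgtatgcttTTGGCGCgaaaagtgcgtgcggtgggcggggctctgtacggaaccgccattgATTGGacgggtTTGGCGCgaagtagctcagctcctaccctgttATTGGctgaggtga
Hmgb2: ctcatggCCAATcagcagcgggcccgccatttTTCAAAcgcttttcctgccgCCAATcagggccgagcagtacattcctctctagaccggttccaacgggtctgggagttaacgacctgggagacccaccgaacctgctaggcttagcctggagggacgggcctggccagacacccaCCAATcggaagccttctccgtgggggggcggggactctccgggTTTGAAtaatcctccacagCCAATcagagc
Top2a: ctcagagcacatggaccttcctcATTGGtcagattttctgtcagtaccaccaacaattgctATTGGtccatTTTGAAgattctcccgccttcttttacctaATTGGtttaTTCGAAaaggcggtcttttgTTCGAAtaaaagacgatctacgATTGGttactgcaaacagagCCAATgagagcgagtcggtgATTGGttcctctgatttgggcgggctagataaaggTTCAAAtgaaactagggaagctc

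The windows are chr5:30073626-30073875 (minus strand) for Tyms, chr1:128359706-128359955 (minus) for Mcm6, chr8:57511593-57511842 (plus) for Hmgb2 and chr11:99024190-99024439 (minus) for Top2a. The Top2a window holds CHR matches that begin 179, 140, 120 and 23 bases before the start, and 6 CCAAT matches. Hmgb2 has CHR matches at 218 and 30 bases and 4 CCAAT matches. Mcm6 has E2F matches at 109 and 46 bases and CCAAT matches at 57 and 14 bases, with no CHR match. None of the searched letters is in the Tyms window. In GENCODE M21 on mm10, the same build, Hmgb2 lies on chromosome 8 from 57511907 to 57515999, Top2a on chromosome 11 from 98992943 to 99024189, Pclaf on chromosome 9 from 65890237 to 65903266, Ube2c on chromosome 2 from 164769898 to 164778822, and Cdk1 on chromosome 10 from 69335146 to 69352938. Mcm5 lies on chromosome 8 from 75109569 to 75128439, Aurka on chromosome 2 from 172356190 to 172370535, Cdc20 on chromosome 4 from 118432901 to 118437352, and Rrm2 on chromosome 12 from 24708241 to 24714146.

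Values are UMI counts, the number of distinct RNA molecules captured at their 3' ends, given below as CPM, that is, scaled to the total UMIs of the same cells. Of 3447 barcodes, 2527 passed the limits on detected genes and mitochondrial share, and 1705 could be tied to 1 mouse by its hashtag: 215 and 241 cells of the B6 mice, 412 and 595 of the BALB/c mice, and 120 and 122 of the NOD mice. UMIs per mouse ran from 2369670 to 10253848, with median UMIs per cell from 13501 to 14692. Cells were sorted into gates by marker genes, none of them a cell cycle gene, so a gate says only which markers a cell carried. The Aire, Mybpc1, collagen VI and immature gates were applied, in that order, only to cells that met no other marker gate. The Aire gate (at least 2 Aire UMIs) held 108 cells, the ciliated gate (at least 4 of 8 markers such as Foxj1) 86, tuft 531, collagen VI 247, immature mTEC 202, keratinocyte 106, neuroendocrine 58, Mybpc1 56, microfold 31 and enterocyte-hepatocyte 14. In the Aire gate, Epcam was seen in 94.4% of cells and Ptprc (CD45) in 1.85%, but Itgb4 (CD104) in 65.7%, Pdpn in 23.1%, and H2-Aa stood at 3773 CPM, so these cells carried RNA of proteins the sort selected against. Median UMIs were 35957.5 per cell in the Aire gate and 20768 in the ciliated gate, against 13609 in the tuft gate.

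The 36 genes together gave 7321 S-phase and 22379 mitotic UMIs in the 1705 cells, and Hmgb2, a chromatin protein also present in cells that do not divide, made 45.6% of the mitotic UMIs. Within the epithelium, the Aire gate held 54.9% of the UMIs of these genes with 13.1% of all UMIs. Pooled CPM was higher in the Aire gate than in each of the other 9 epithelial gates for every one of the 36 genes. Cenpf (75.4 against 72.9) and Ube2c (149.5 against 146.7) were only just above the Mybpc1 gate, where Ube2c came mostly from NOD mouse 1, as given below.

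**Figure D1:**
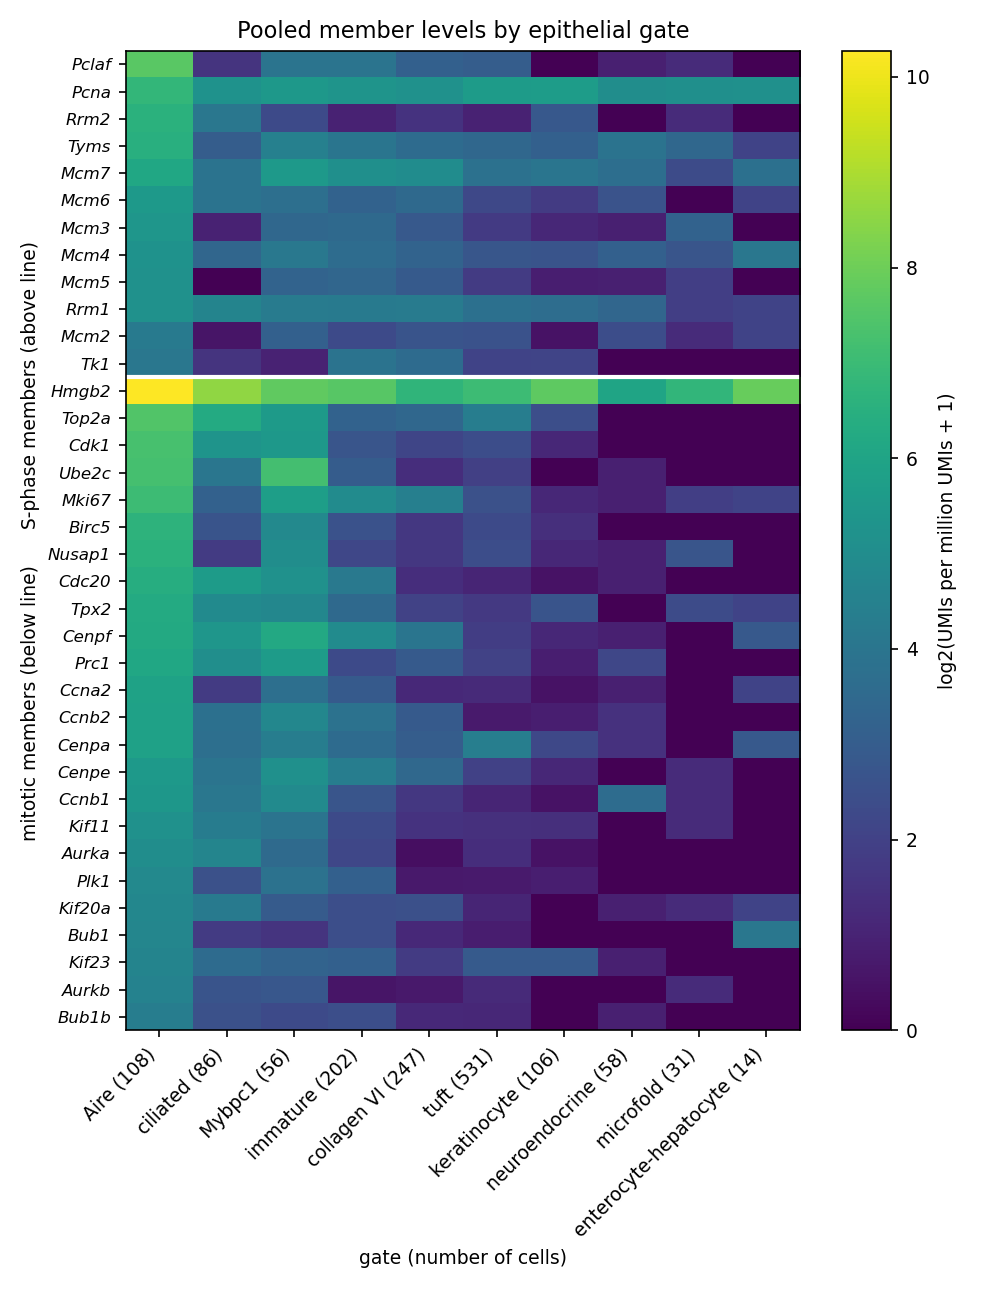
Pooled level of each of the 36 genes (rows, S-phase above the white line and mitotic below) in each epithelial gate (columns, number of cells in brackets), coloured by log2 of CPM plus 1. The Aire column is the brightest in every row, Hmgb2 and Pcna are seen in every gate, and the ciliated column is bright for Top2a, Cdc20 and Cdk1 but at 0 for Mcm5.

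The first comparison asked which epithelial gates express the cell cycle genes, with each gate set against the mean of the others across the mice. Aire-gated cells had higher levels of all 36 genes, both the replication genes and the mitotic ones. The mitotic genes were higher by a median of 4.57 on the log2 scale and the S-phase genes by 2.66, against -0.05 over all 12096 genes tested. All 36 passed the filter on low counts. In that comparison 26.8% of the 12096 genes were called higher and 23.8% lower by edgeR's quasi-likelihood test at an adjusted p under 0.05. The fit used 23 sums of at least 10 cells from 5 gates, with mouse as a block. B6 mouse 2, with 6 Aire-gated cells, gave no Aire sum, so its Aire-gate values below took no part in the fit. Sums over cells cannot tell apart a larger share of dividing cells and more RNA of these genes per cell.

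Among the nucleotide synthesis genes, Rrm2, the regulated subunit of ribonucleotide reductase, stood in Aire-gated cells at 44.0 and 83.6 CPM in the B6 mice, 30.8 and 80.9 for BALB/c and 142 and 146 for NOD. Pooled levels in the other epithelial gates ran from 0 to 15.9. All 6 Aire-gated values of Rrm2 were above those pooled levels, and the fitted difference was 5.18 (SE 0.33, edgeR adjusted p = 1.5e-10). Tyms, thymidylate synthase, was higher by 3.04 (SE 0.24). Rrm1, the partner subunit, differed less (1.32, SE 0.29), as did Tk1, thymidine kinase (1.13, SE 0.46), whose adjusted p of 0.0467 was the weakest of the 36 and which was at 0 in B6 mouse 1. Tk1 was not called when BALB/c mouse 1, NOD mouse 1 or NOD mouse 2 was left out, nor under 10% mitochondrial UMIs or with a 90% hashtag limit. With at least 20 cells per sum, only BALB/c mouse 2, with 37 Aire-gated cells, gave an Aire sum. Calls in that setting therefore have no second Aire mouse and are not read. The fitted difference there was 1.68 for Tk1, with a median of 4.01 over the 35 genes tested.

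Among the replication fork genes, Pclaf, a protein that binds the sliding clamp PCNA, stood at 132 and 449 CPM in the B6 mice, 105 and 212 for BALB/c and 219.7 and 190.4 for NOD. Pclaf was at or under 14.6 CPM in the other gates, a difference of 5.84 (SE 0.33, edgeR adjusted p = 2.5e-10). B6 mouse 2, with 6 Aire-gated cells, had the highest level of Pclaf, and BALB/c mouse 1 the lowest. Pcna itself was seen in every gate, from 31.5 to 49.9 CPM outside the Aire gate, and was higher in the Aire gate by 1.33 (SE 0.26). The MCM genes, subunits of the replicative helicase, were higher by 1.72 (Mcm7) to 3.34 (Mcm3).

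Among the mitotic kinases and cyclins, Cdk1, the kinase that starts mitosis, stood at 56.1 and 120.2 CPM in the B6 mice, 177 and 131 for BALB/c and 157 and 219 for NOD, a difference of 5.36 (SE 0.35, edgeR adjusted p = 2.2e-10). Its lowest value, in B6 mouse 1, was above the highest pooled level elsewhere, 43.7 CPM in the Mybpc1 gate. Its cyclin partners Ccna2 (5.15), Ccnb1 (4.72) and Ccnb2 (4.43) were higher too, as were the spindle kinases Aurka (5.44) and Plk1 (4.33) and the chromosomal passenger genes Aurkb (4.89) and Birc5 (5.26). Bub1 and Bub1b, kinases of the spindle checkpoint, were higher by 4.93 and 4.74.

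Ube2c, the ubiquitin-conjugating enzyme of the anaphase-promoting complex, had the largest difference of the 36 genes (6.78, SE 0.41, edgeR adjusted p = 4.8e-10), with 72.1 and 73.2 CPM in the B6 mice, 208 and 116 for BALB/c and 162 and 195 for NOD. Cdc20, which activates the same complex, was higher by 5.44. Of the spindle motors and kinetochore genes, Kif11 (3.86), Kif20a (4.12), Prc1 (4.62), Tpx2 (4.52), Nusap1 (5.25), Cenpe (3.16), Cenpf (3.73) and Cenpa (2.92) were higher, and Kif23 had the smallest difference (2.08). Top2a, which untangles DNA before segregation, was higher by 4.19, the proliferation marker Mki67 by 3.92 and Hmgb2 by 3.37.

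**Figure D2:**
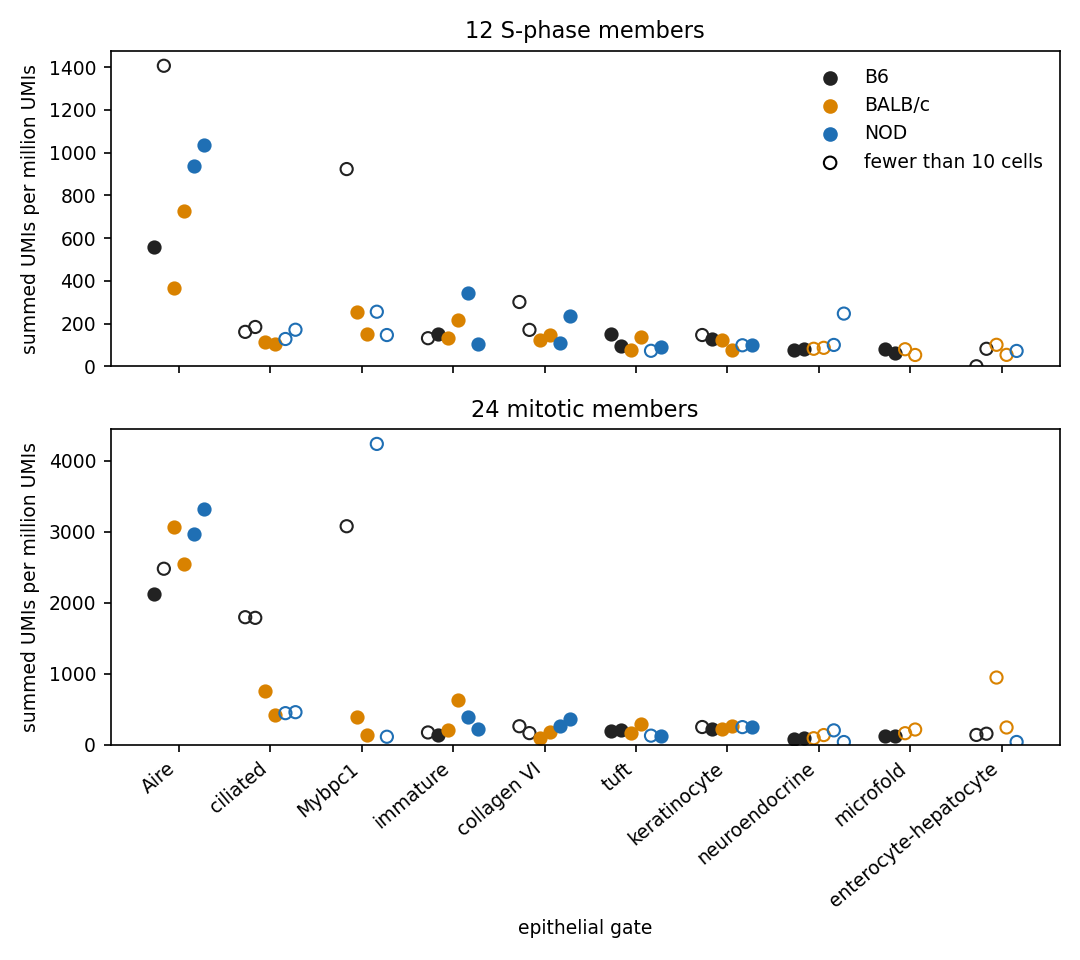
Summed CPM of the 12 S-phase genes (upper panel) and the 24 mitotic genes (lower panel) per mouse and epithelial gate; each point is 1 mouse, coloured by strain, and open points rest on fewer than 10 cells. The mitotic sum was between 2122 and 3322 CPM in the Aire gate of all 6 mice. High open points in the Mybpc1 gate are 2 cells of B6 mouse 2 and 7 cells of NOD mouse 1. Of those 7 cells, 1 had at least 4 mitotic genes.

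Genes around the cycle were read from lists of regulators that are not among the 36, beside 26.8% of all genes called higher and 23.8% lower in this fit. Of 10 tested G1 and S cyclins and kinases, 7 were higher in the Aire gate: Ccnd2 (4.10), Cks1b (4.07), Ccne1 (2.59), Cdk4 (1.97), Ccne2 (1.72), Ccnd1 (1.54) and Cdk2 (0.86), with Ccnd3 lower (-0.76). Ccnd2, a D-type cyclin that drives entry into the cycle, stood at 761 and 894 CPM in the B6 mice, 492 and 623 for BALB/c and 808 and 1363 for NOD. Of 10 tested CDK inhibitors and pocket proteins, Cdkn2c (2.49) and Cdkn2d (0.77) were higher and Cdkn1a (-2.09) and Rb1 (-1.13) lower. Cdkn1a encodes p21, which arrests the cycle, and its pooled level was 45.4 CPM in the Aire gate, 369 in the tuft gate and 553 in the ciliated gate. Of 10 tested transcription factors, E2f7 (4.47), E2f1 (3.64), E2f2 (2.35), Myc (1.93) and E2f5 (1.01) were higher and Lin54 lower (-0.94). Of the other replication genes, 18 of 20 tested were higher, led by Dut (3.37), Uhrf1 (4.95), Gmnn (2.60) and Hells (3.22), and of the other mitotic genes 36 of 37, led by Cdc25c (5.55), Cks2 (3.66), Cdca8 (4.39) and Stmn1 (3.17).

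Cells were then counted one by one. A UMI of at least 4 of the 24 mitotic genes was present in 58 of 108 Aire-gated cells (53.7%, exact 95% interval 43.8 to 63.3), and of at least 4 of the 12 S-phase genes in 66 (61.1%, 51.3 to 70.3). By mouse, the mitotic share was 7 of 10 and 3 of 6 cells for the B6 mice, 35.3% and 51.4% for BALB/c, and 52.6% and 68.4% for NOD. The B6 shares overlapped those of both other strains, and the NOD shares were above the BALB/c shares by as little as 51.4% against 52.6%. Both kinds were present together in 50 cells, mitotic genes alone in 8 and S-phase genes alone in 16. The same mitotic share was 3.58% in the tuft gate, 1.72% in the neuroendocrine gate, and 0 of 31 cells in the microfold gate (exact upper limit 11.2%). In the Mybpc1 gate 7 of 56 cells had 4 mitotic genes (12.5%) and 13 had 4 S-phase genes (23.2%, against 12.8% in the ciliated gate). Deeper cells show more genes: after each cell was thinned to 3000 UMIs, the mitotic share was 31 of 106 Aire-gated cells (29.2%) and 1 of 522 tuft-gated cells (0.192%), and the S-phase share 11.3% and 0.192%. In the Mybpc1 gate the thinned shares were 7.27% and 1.82%. Of the 106 thinned Aire-gated cells, 7 had both kinds, 24 mitotic genes alone and 5 S-phase genes alone. The split of 50, 8 and 16 cells therefore moved with depth. Intervals cover counting error only.

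Thymocytes are the most abundant dividing cells of the thymus. The 74 Aire-gated cells with at least 4 mitotic or 4 S-phase genes had 86.1 CPM summed over 12 thymocyte markers. By mouse the sum was 34.2 to 712.5, highest in B6 mouse 2, against 3102 CPM in the thymocyte gate. Cells with at least 4 of these 12 markers could not enter the Aire gate. The gates therefore fix much of this difference, and it is no test for thymocytes. Of the 12 markers, 7 had a UMI in the 74 cells, with Rag1, Dntt, Cd8a, Cd4 and Themis at 0. Epithelial markers summed to 3094 CPM in these 74 cells and 3229 CPM in the 34 other Aire-gated cells. In those 34, thymocyte markers summed to 47.4 CPM (11.3 to 104 by mouse), and 4 of the 12 had a UMI. Between the 2 sets, Cd3d, Cd3g, Cd8b1 and Ptcra had a UMI only in the 74 cells, and Cd4 only in the 34. Median UMIs were 43051.5 and 18267, so depth differed between the 2 sets of cells, and its part in their difference was not tested.

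**Figure D3:**
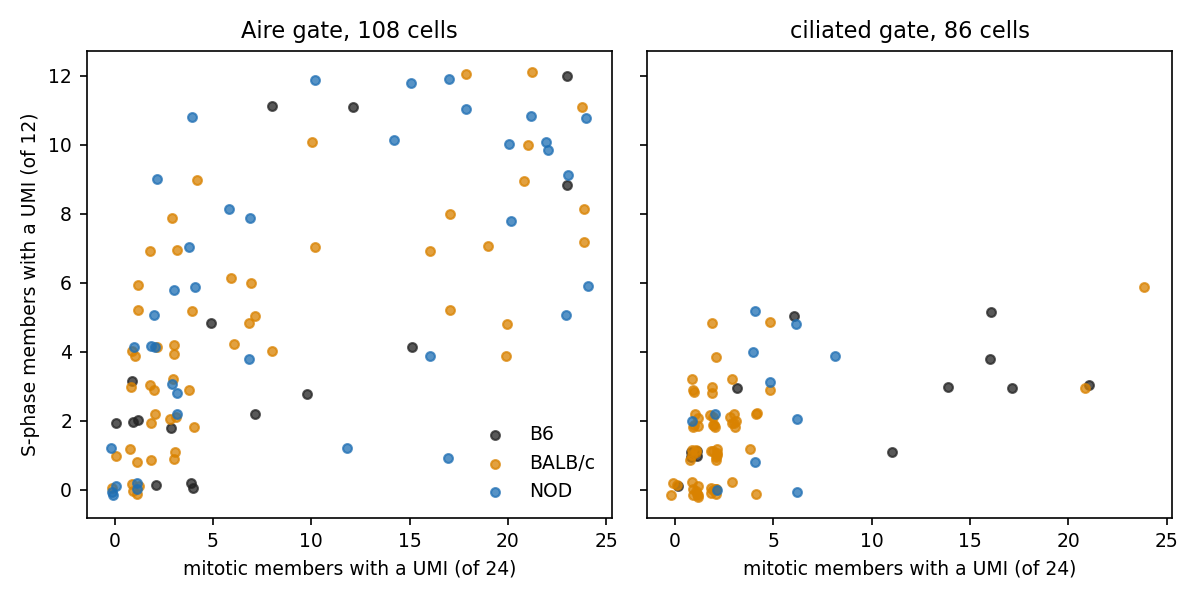
Each point is 1 cell, placed by how many of the 24 mitotic genes (horizontal axis) and of the 12 S-phase genes (vertical axis) had a UMI, for the Aire gate (left) and the ciliated gate (right), coloured by strain and shifted slightly so that points do not hide each other. Aire-gated cells with many mitotic genes mostly had many S-phase genes as well, with a median of 9 for those with 8 or more mitotic genes, while the corresponding ciliated-gated cells had a median of 3 and none more than 6.

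Within the Aire gate, the cells with at least 4 mitotic or S-phase genes were compared with the remaining cells of the same mice. The 36 genes chose these cells, so the 27 of them in the fit are not read here. Of 52 tested genes from the 5 regulator lists, 15 were higher and 0 lower, against 1.21% and 0.35% of 5709 genes. Of the 69 genes called higher 24 were among the 36, and without them 0.792% of genes were called higher. The 15 were Cks1b (2.18, SE 0.48), an adaptor of cyclin-dependent kinases, 11 of 25 other mitotic genes and 3 of 13 other replication genes. Cks1b was the 1 called of 4 tested G1 and S genes. Cdca8 (6.00), Cks2 (3.02), Smc2 (3.36) and Spc24 (3.76) led the other mitotic genes, and the replication genes were Dut (2.15), Hells (3.72) and Uhrf1 (3.10). Such genes belong to the same steps as the 36 that chose the cells, so their excess is a description and no test. No CDK inhibitor or pocket protein of 7 tested and no transcription factor of 3 passed edgeR's test, and 0 of them had an unadjusted p under 0.05. The fit held 12 sums of at least 3 cells. Without BALB/c mouse 2 or NOD mouse 2 the count of 15 was 7, and with a 90% hashtag limit it was 4.

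In ciliated-gated cells 10 of 23 tested mitotic genes and 2 of 11 tested S-phase genes were higher, led by Aurka, Cdc20 and Top2a, and Mcm5 was lower. As background, multiciliated cells of other tissues no longer divide, and Cdk1, Plk1 and the anaphase-promoting complex are known to act in the centriole amplification that precedes their cilia. Too few mice had 10 ciliated-gated cells, so sums of at least 5 cells were used (40 sums of 8 gates, 4 of them ciliated). B6 mouse 2 with 4 ciliated-gated cells and NOD mouse 2 with 3 gave no ciliated sum. Their ciliated values are given below but took no part in the fit. In that fit 12 of 34 tested genes were higher and 1 lower, against 23.5% of 11477 genes called higher and 13.4% lower. Mcm2 and Bub1b did not pass the filter there. All 34 were higher in the Aire gate of the same fit, against 25.8% of genes called higher and 21.1% lower. In the ciliated gate the median over the mitotic genes was 1.35 and over the S-phase genes -0.48, against 0.01 over all genes.

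Aurka, the kinase of centrosomes and spindle poles, stood at 69.9 and 61.3 CPM in the ciliated gate of the B6 mice, 26.2 and 0 for BALB/c and 9.11 and 0 for NOD. The B6 values are the highest, and BALB/c mouse 2 with 26 cells has none. The fitted difference was 3.26 (SE 0.76, edgeR adjusted p = 0.0008). Cdc20, in the same order of mice, stood at 168, 53.6, 57.4, 1.86, 0 and 0 CPM. It was high in the same 3 mice, of which B6 mouse 1 and BALB/c mouse 1 entered the fit. Its fitted difference was 3.14 (SE 0.67, edgeR adjusted p = 0.00026). Top2a, at 220.3, 161, 81.1, 7.43, 31.9 and 0 CPM, was higher by 2.89 (SE 0.77). The other mitotic genes called were Kif20a (2.51), Cdk1 (2.47), Aurkb (2.38), Kif11 (2.33), Prc1 (2.11), Tpx2 (2.10) and Hmgb2 (1.06). With Mki67 (-0.60), Nusap1 (-1.37) and Ccna2 (-0.94), 3 mitotic genes that were among the clear differences of the Aire gate had fitted values below 0 and were not called.

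Of the S-phase genes in the ciliated gate, Rrm2 (2.19, SE 0.61) and Mcm6 (1.29, SE 0.52) were higher. Mcm5 had 0 UMIs in all 86 cells, which allows a share of cells with a UMI of up to 3.49% and does not bound the share that expresses it, and was called lower; with every sum at 0 its fitted size has no bound. Mcm5 was seen in 33.3% of Aire-gated cells. Mcm2 had 1 UMI, Mcm3 2 and Pclaf 4 in the ciliated gate, against 62, 146 and 708 in the Aire gate. The ratio of S-phase to mitotic UMIs was 0.153 in the ciliated gate, from 0.0897 to 0.375 by mouse, and 0.279 in the Aire gate, from 0.120 to 0.568. These ranges overlap. Without Hmgb2 the pooled ratios were 0.284 and 0.497, but the order differed between mice. The ciliated ratio was below the Aire ratio in the B6 mice (0.135 against 0.565, and 0.153 against 0.934). It was above in BALB/c mouse 1 (0.265 against 0.206), BALB/c mouse 2 (1.83 against 0.533), NOD mouse 1 (0.824 against 0.552) and NOD mouse 2 (1.13 against 0.545), the last 3 on 16 to 34 mitotic UMIs of the ciliated gate. The difference was not tested.

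Counted by cell, at least 4 mitotic genes were present in 23 of 86 ciliated-gated cells (26.7%, 17.8 to 37.4), with 4 of 9 and 3 of 4 cells in the B6 mice, 5 of 36 and 3 of 26 in BALB/c, and 5 of 8 and 3 of 3 in NOD. Both BALB/c mice were lower than the other 4, on counts as small as 3 cells. At least 4 S-phase genes were present in 11 cells (12.8%). Thinned to 3000 UMIs, 8 of 85 cells (9.41%) had 4 mitotic genes and 0 of 85 had 4 S-phase genes. Among cells with at least 8 mitotic genes, median depth was close, 44681 UMIs for 9 ciliated-gated and 46899 for 39 Aire-gated cells. A UMI of Mcm2, Mcm3 or Mcm5 was present in 2 of those 9 and 30 of those 39, of Pclaf in 1 and 34, and of Mki67 in 5 and 35, while Top2a was present in 8 and 35 and Cdk1 in 8 and 36. The 9 cells had 195.3 CPM of S-phase genes and 2664 of mitotic genes, the 39 cells 1373 and 5623. As cells are not replicates and 6 of the 9 came from B6 mice, no test was made.

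The ciliated gate required at least 4 of 8 ciliated markers, so every cell in it carried them by choice. Those markers summed to 6004 CPM (4818 to 7071 by mouse) in the 23 cells with at least 4 mitotic genes, against 4306 (3743 to 7797) in the other 63 cells. The ranges by mouse overlap, and median UMIs were 38151 and 17034. Thymocyte markers summed to 10.3 CPM (0 to 21.7 by mouse), with 7 of 12 at 0, against 14.1 CPM (0 to 16.2) in the other 63. Cells with at least 4 of the 12 thymocyte markers could not enter the ciliated gate, so these sums are no test for thymocytes. An Aire UMI was present in 3 of the 23 cells. Removing the Aire gate from the reference gave 15 higher and 1 lower, against 23.3% and 13.3% of genes. Without B6 mouse 1 or without BALB/c mouse 1 the count of 12 higher fell to 5. Aurka, Cdc20 and Hmgb2 were called in each of the 6 fits that left out 1 mouse.

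**Figure D4:**
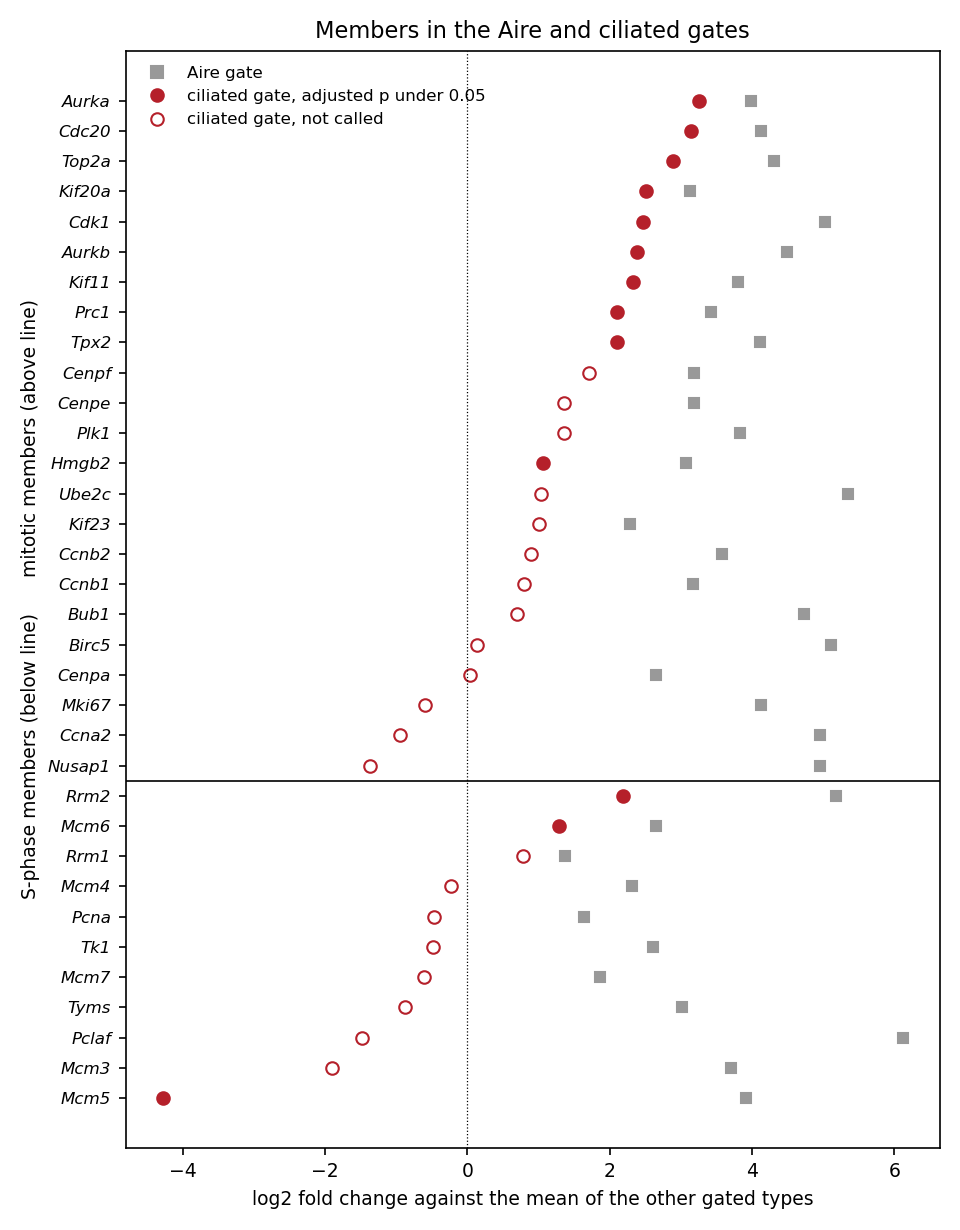
Fitted log2 fold change (horizontal axis) of 34 genes in the ciliated gate (circles, filled where the adjusted p was under 0.05) and in the Aire gate (grey squares), each against the mean of the other gates in the fit with sums of at least 5 cells; mitotic genes stand above the line and S-phase genes below. The squares lie to the right of 0 in every row, while the circles spread from Aurka at 3.26 down to Mcm5, which had 0 UMIs in the ciliated gate, so its place is no bound.

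The same lists of regulators were read in the ciliated gate. Of 10 CDK inhibitors and pocket proteins, 4 were higher: Cdkn1c (5.04), Cdkn2a (2.49), Cdkn1a (2.21) and Cdkn2b (1.80). Cdkn1c, which encodes p57, stood at 682 and 605 CPM in the B6 mice, 466 and 3926 for BALB/c and 3599 and 1073 for NOD, a wide spread between mice. Ccnd1 was lower (-2.5) and Cdk6 (1.70) and Ccnd3 (1.04) higher, and the transcription factors Mycl (-1.90) and E2f3 (-1.33) were lower. Of the other mitotic genes, 12 of 33 were higher and 1 lower. They were led by Nek2, a kinase that separates centrosomes (4.84, SE 0.49), Cks2 (2.45), Ect2 (2.14) and, in the lower direction, Cdc25b (-2.78). Nek2 stood at 118.9 and 207 CPM for B6, 48.6 and 26.0 for BALB/c and 54.7 and 76.0 for NOD in the ciliated gate, and at 10.1 CPM pooled in the Aire gate. Of 17 other replication genes, 3 were higher and 3 lower, led by Dut (-1.31), Chaf1a (1.51) and Dnmt1 (-1.30), beside the 23.5% and 13.4% of all genes called higher and lower in that fit.

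In the keratinocyte, tuft and collagen VI gates fewer of the 36 genes were called lower when the Aire gate was left out of the reference. In the keratinocyte gate 0 genes were higher and 19 of 36 lower, against 21.9% and 20.1% of 12096 genes. Pclaf had 0 UMIs there in 106 cells, which allows a share of cells with a UMI of up to 2.83%. Without the Aire gate in the reference 7 were lower and 2, Rrm2 (2.28) and Hmgb2 (0.86), higher, against 20.5% and 21.9% of genes. In the tuft gate 0 were higher and 10 lower, against 24.1% and 17.2% of genes. Without the Aire gate in the reference, Ccnb2 (-2.51) and Mcm7 (-0.97) were lower and Cenpa (1.88) higher, against 16.8% and 23.8% of genes. In the collagen VI gate 0 were higher, against 15.4% of genes, and 3 lower, Aurka, Hmgb2 and Birc5, against 8.92% of genes. Without the Aire gate edgeR called 0 in either direction, against 12.8% and 8.58% of genes, and 6 had an unadjusted p under 0.05. These counts moved with single mice: the 19 fell to 4 without BALB/c mouse 2 and 11 without NOD mouse 2, the 10 to 6 without B6 mouse 2 and 5 without BALB/c mouse 1, and the 3 to 1 without either BALB/c mouse, while 10 were lower without NOD mouse 2.

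The immature mTEC gate had 1 gene higher, Cdc20 (2.16, SE 0.57), and 1 lower, Hmgb2 (-0.90), against 10.5% and 5.49% of genes. Without BALB/c mouse 2, edgeR called 0 higher and 1 lower, and no other had an unadjusted p under 0.05. Stricter gates gave 7 higher and 3 lower, at least 20 cells per sum gave 4 higher and 0 lower, and no filter gave 4 higher and 1 lower. Against the other gates without the Aire gate, 12 of 36 were higher and 0 lower, against 9.63% and 5.44% of genes: Cdc20 (3.75), Plk1 (3.02), Pclaf (2.89), Cenpf (2.76), Aurka (2.73), Ccnb2 (2.68), Ccna2 (2.5), Mcm3 (2.44), Mcm5 (2.43), Mki67 (2.42), Kif20a (2.26) and Cenpe (2.13). Mki67 stood there at 0 in both B6 mice, 32.4 and 36.3 CPM for BALB/c and 41.2 and 30.3 for NOD. The B6 zeros rest on 9 and 11 cells. BALB/c mouse 2 held 592 of the 814 mitotic UMIs of the immature gate. The contrast without the Aire gate was not refitted without single mice. With sums of at least 5 cells, 5 of 34 were higher and 0 lower against the gates other than Aire, with 10.2% and 3.57% of genes called. At least 4 mitotic genes were present in 10 of 202 immature-gated cells (4.95%) and 11 of 247 collagen VI-gated cells (4.45%), and after thinning in 5 of 172 immature-gated cells (2.91%).

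Some mitotic genes were seen in tuft-gated cells without the others. Top2a had a UMI in 75 of 531 tuft-gated cells (14.1%) and Cenpa, the centromeric histone, in 121 (22.8%), with Cenpa between 10.8 and 25.6 CPM in all 6 mice. Apart from Hmgb2, no other mitotic gene was seen in 41 of the 75 and 67 of the 121 cells, while among 50 Aire-gated cells with Top2a 1 had no other. In the keratinocyte gate Top2a was alone in 5 of 10 cells and Cenpa in 3 of 6, in the immature gate in 0 of 7 and 4 of 9, in the collagen VI gate in 3 of 9 and 0 of 9, and in the ciliated gate in 2 of 17 and 0 of 10. The part of free RNA in these counts was not tested. Top2a was seen in 0 of 58 neuroendocrine-gated cells, which allows a share of cells with a UMI of up to 5.17%, and Cenpa in 2, at a median depth of 19568 UMIs against 13609 in the tuft gate. Tuft-gated cells had higher Cdkn1c (3.16), Cdkn2d (1.99), Cdkn1a (1.80), Cdkn1b (1.62) and Rb1 (1.23) and lower Rbl1 (-1.56), Cdkn2a (-1.46) and Cdkn2b (-1.27). Keratinocyte-gated cells had higher Cdkn1a (3.54), Cdkn2a (3.38), Cdkn2b (3.13) and Rb1 (0.84).

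In the Mybpc1 gate, named for a myosin-binding protein gene, 12 mitotic genes were called higher, led by Ube2c (4.67, SE 0.83), and 0 lower, against 7.04% and 2.03% of genes in the fit with sums of at least 5 cells. The call rests on 1 mouse: Ube2c stood at 822 CPM in 7 cells of NOD mouse 1 and at 15.4 and 4.02 in the BALB/c mice. It was at 0 in 2 cells of B6 mouse 2 and 4 cells of NOD mouse 2, too few to enter the fit. Of the 7 cells of NOD mouse 1, 1 had at least 4 mitotic genes, and its part in the call was not tested. Without NOD mouse 1 the count was 0. Without the Aire gate in the reference it was 18, 3 S-phase and 15 mitotic, against 9.29% of genes called higher and 3.58% lower. In the neuroendocrine gate 0 genes were higher and 8 of 34 lower in that fit, against 14% and 10.7% of genes. Without the Aire gate in the reference 1 was lower, against 10.2% of genes, with 13.4% called higher. Without either B6 mouse 2 were lower, and without either BALB/c mouse 3.

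The second comparison asked whether the strains differ in cell cycle genes. Over all epithelial cells, both NOD mice had more of these genes than the other 4 mice. Summed mitotic genes stood at 449 and 366 CPM for B6, 536 and 606 for BALB/c and 1393 and 1083 for NOD. Summed S-phase genes stood at 164 and 172, 134 and 215, and 378 and 397 CPM. The share of epithelial cells inside the Aire gate was 17.1% and 15.8% for the NOD mice, 4.83% and 2.71% for the B6 mice, and 4.35% and 6.55% for the BALB/c mice. The make-up of the cells thus moved with the strain.

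Against B6, 27 of 36 genes were higher in NOD, 9 S-phase and 18 mitotic, with 13.8% of 15436 genes called higher and 14.1% lower, and medians of 1.19 and 1.88 against -0.03 over all genes. No gene of the 36 was lower. Not called were Bub1b, Bub1, Aurka, Cdc20, Tyms, Kif23, Pclaf, Tk1 and Kif11. Ube2c stood at 9.77 and 7.79 CPM for B6, 22.1 and 20.4 for BALB/c and 113.5 and 54.0 for NOD, and differed by 3.34 (SE 0.39, edgeR adjusted p = 0.0025). The strains did not overlap for Ube2c. In NOD mouse 1, the 7 Mybpc1-gated cells, where Ube2c was high as given above, held 747 of 3229 epithelial mitotic UMIs. Their part in the Ube2c difference was not tested. Rrm2 was at 8.91 and 8.06, 4.10 and 12.1, and 45.7 and 44.6 CPM (2.49, SE 0.47). Mki67 was at 9.19 and 14.2, 22.1 and 27.3, and 48.3 and 60.9 CPM (2.30, SE 0.26). Cdk1 differed by 2.24, Hmgb2 by 1.31 and Pcna by 0.59. Against BALB/c, 18 were higher in NOD, 6 S-phase and 12 mitotic, with 4.04% of genes called higher and 5.25% lower. BALB/c against B6 gave 1, Mki67 (1.07, edgeR adjusted p = 0.0489), and 0 without any 1 of the B6 or BALB/c mice, with 4.83% of genes called higher and 5.04% lower. The NOD mice are shared by the first pair of contrasts and the other mice by the third, so the 3 counts are not independent.

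Among regulators, NOD against B6 had 6 G1 and S genes higher, Ccne1 (2.02), Ccnd2 (1.93), Cks1b (1.80), Ccnd1 (1.79), Cdk4 (1.5) and Cdk6 (1.22), with Cdc25a lower (-1.05). The inhibitors Rb1 (-0.95) and Cdkn1b (-0.80) were lower, and the transcription factors E2f7, E2f3 and Myc higher. Of the remaining lists, 11 of 26 other replication genes and 19 of 41 other mitotic genes were higher, beside the 13.8% of all genes called higher and 14.1% lower.

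Outside the Aire gate fewer genes were called between strains. Summed mitotic genes there stood at 320.1 and 247.5 CPM for B6, 264.0 and 319.2 for BALB/c and 719.9 and 264.2 for NOD. Only NOD mouse 1 was high, and 747 of its 1167 mitotic UMIs came from the 7 Mybpc1-gated cells above, of which 1 had at least 4 mitotic genes. Without Aire-gated cells 32 of the 36 genes could be tested, and 3 were higher in NOD than in B6 (Mki67 2.61, Kif11 2.20, Cenpe 2.06), 2 higher than in BALB/c (Mcm6 1.87, Mki67 1.41), and 0 in BALB/c against B6, where 3 had an unadjusted p under 0.05. In that setting 10.5%, 2.36% and 5.05% of genes were called higher and 11%, 3.01% and 5.11% lower. A limma voom fit on sums per gate, with gate and strain as terms, called 1 (Kif20a), 3 (Mcm6, Mcm5 and Rrm2) and 0 higher in the same 3 contrasts, with 1.73%, 2.48% and 2.11% of genes called higher. In BALB/c against B6 it called 1 lower, Mcm6, with 2.46%, 2.21% and 3.84% of genes called lower. The voom fit used 23 sums of 5 gates, the Aire gate among them, and no ciliated, Mybpc1 or neuroendocrine sums. The fitted correlation between sums of the same mouse was -0.058. Such sums thus counted nearly as separate replicates of a strain, and voom p-values do not measure the spread between mice alone. Against B6 the count of 27 was 15 or 14 when a B6 mouse was left out. The count of 18 against BALB/c was 10 without either B6 mouse, 1 and 2 without BALB/c mouse 1 and 2, and 2 and 11 without NOD mouse 1 and 2.

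**Figure D5:**
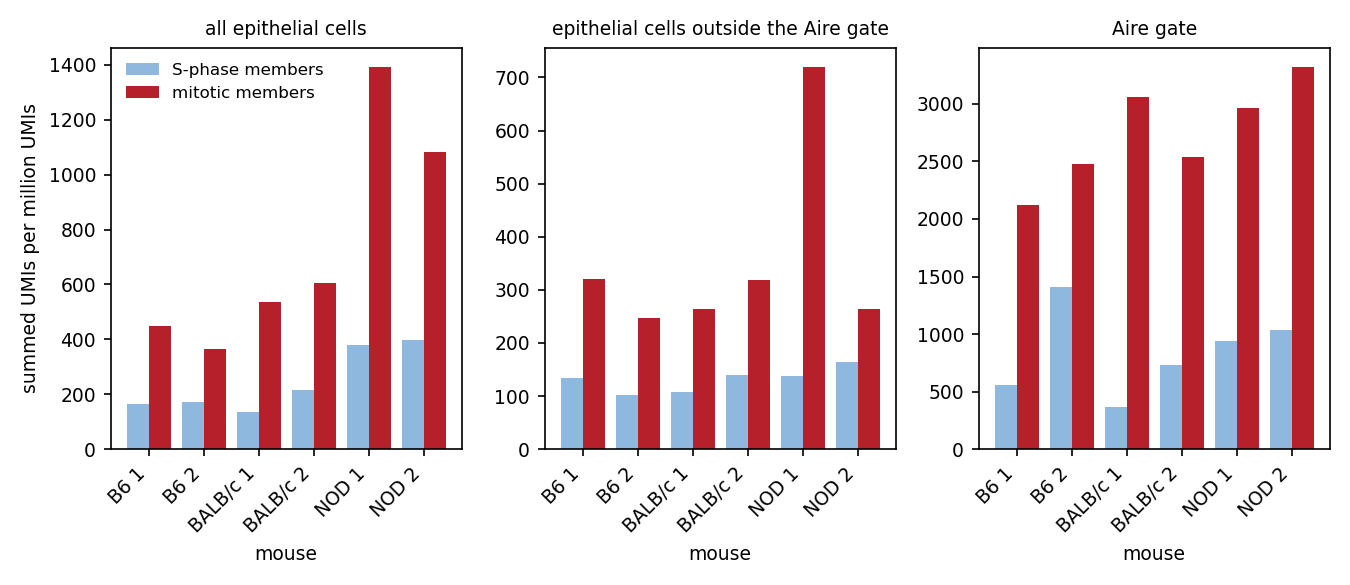
Summed CPM of the S-phase genes (blue bars) and mitotic genes (red bars) in each mouse, over all epithelial cells (left), epithelial cells outside the Aire gate (middle) and the Aire gate (right), with bars from 0 and a separate scale in each panel. Both NOD mice are highest on the left, only NOD mouse 1 stands apart in the middle, and on the right the mitotic sums run from 2122 to 3322.

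Inside the Aire gate, mitotic genes summed to 2122 and 2477 CPM for B6, 3062 and 2537 for BALB/c and 2961 and 3322 for NOD, and S-phase genes to 557 and 1406, 368 and 729, and 938 and 1034. Both B6 mice were below the other 4 in the mitotic sum, while in the S-phase sum B6 mouse 2 was the highest of all and B6 mouse 1 lower than all but 1. Of 36 genes, 0 were called in each of the 3 contrasts by edgeR and by DESeq2, with 0.144%, 0.123% and 0.123% of 9743 genes called higher and 0.39%, 0.123% and 0.277% lower by edgeR for NOD against B6, NOD against BALB/c and BALB/c against B6. An unadjusted p under 0.05 was reached by 7, 7 and 5 genes. Top2a was among them in both contrasts with B6: it stood at 44.0 CPM in B6 mouse 1, 208 and 169 for BALB/c and 175 and 166 for NOD. B6 mouse 2, left out of this fit for its 6 cells, had Top2a at 319 CPM, and the lone B6 mouse is assumed to vary like the others.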

How the data were processed

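The deposited matrix holds UMI counts of genes and of hashtag antibodies per barcode, which the authors made with Cell Ranger 7.0.0 on mm10, per the submitters' processing notes. It pools all mice, and 9 other hashtag features in it were not used. Kept barcodes had at least 500 genes and under 15% mitochondrial UMIs, and were tied to a mouse by a hashtag with at least 80% of at least 100 hashtag UMIs. The labels number both NOD hashtags as replicate 1, and they were kept as 2 mice because another label numbers them 1 to 2. Mixed hashtags were left out, and no doublet caller was run.

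Gates used marker genes, with limits set after the marker histograms were seen. Raw counts were summed per mouse and gate (at least 10 cells, or 5 or 3 where stated) and tested with edgeR 4.0.16 quasi-likelihood (TMM, low count filter, mouse as a block between gates, Benjamini-Hochberg over all genes), in R 4.3.3 with limma 3.58.1. DESeq2 1.42.0 was an alternative. The scripts were tested on simulated data. Log2 fold changes are fitted values, and 3' UMI counts carry no length term. Shares have exact (Clopper-Pearson) 95% intervals, and the limit for a count of 0 is 3 counts. Gene positions came from GENCODE M21, and 2 symbols of the regulator lists were unmatched.

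The 36 genes and all lists were chosen with earlier results of these data known. All 36 were to be described, and of the other lists all called cyclins, inhibitors and transcription factors and up to 4 other genes with the smallest adjusted p were to be named. Promoters were printed for the 2 highest S-phase and 2 highest mitotic genes of the Aire gate, passing over windows inside an annotated gene. The comparison of cells with many cycle genes against the other Aire-gated cells was planned with 10 cells per sum, which no mouse had, so sums of 3 cells were used.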

Additional observations from a re-analysis of the deposited data

Results flagged for a closer look

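Of 822 barcodes that passed the limits on genes and mitochondrial UMIs but could be tied to no mouse, and so entered no comparison, 110 had a UMI of at least 8 of the 24 mitotic genes. They were 40 of 203 such barcodes in the myeloid gate, 33 of 142 in the thymocyte gate, 21 of 51 in the Aire gate and 2 of 6 in the ciliated gate. The rest were in other gates. Among the 1705 cells tied to a mouse, 82 had at least 8 mitotic genes. Of the 110, 47 were among 330 barcodes with fewer than 100 hashtag UMIs and 63 among 492 with mixed hashtags.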

How the results depend on the processing

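Depth and the number of mice limit these results: some sums hold few cells and each strain has 2 mice. The count of 36 genes higher in the Aire gate was 35 to 36 when each mouse was left out. Replicate numbers showed no pairing of the B6 with the BALB/c mice (correlation of 0.011 over 10641 genes), and NOD was not examined. The reverse pairing, at -0.011, is the same value with its sign changed, because levels were centred within each strain. A replicate block gave 4 in place of 1 for BALB/c against B6. Leaving the Aire gate out of the reference, sums of 5 cells, the 8-gene limit and the comparison inside the Aire gate were chosen after seeing the data. The causes of the changes below were not tested, apart from the fewer cells or genes that a setting uses.

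The 19 genes lower in the keratinocyte gate were 7 without the Aire gate in the reference, 9 with at least 20 cells per sum, and 4 to 20 when each mouse was left out. The 10 of the tuft gate were 2 without the Aire gate in the reference, 17 with DESeq2, 5 with a 90% hashtag limit, 16 with stricter gates, and 5 to 10 without single mice. The 3 of the collagen VI gate were 0 without the Aire gate in the reference, 5 with DESeq2 size factors, 10 with no filter, 6 with DESeq2, 5 with the 90% limit, 1 with stricter gates, 5 with 20 cells, and 1 to 10 without single mice. The 12 of the ciliated gate were 5 to 15 without single mice, and the 12 of the Mybpc1 gate 18 without the Aire gate in the reference, 18 with no filter, 6 with DESeq2 and 0 to 15 without single mice. Without NOD mouse 1 the Mybpc1 values of Birc5 (-1.68), Cdc20 (-0.40), Cdk1 (-0.81), Nusap1 (-1.74), Plk1 (-0.62), Prc1 (-1.96) and Tpx2 (-0.44) reversed.

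For NOD against B6 the 27 were 3 without Aire-gated cells, 1 with limma voom and gate as a term, and 14 to 24 without single mice. For NOD against BALB/c the 18 were 2, 3 and 1 to 11. For BALB/c against B6 the 1 was 0 with DESeq2 size factors, 7 with no filter, 2 with DESeq2, 3 with the 90% limit, 0 without Aire-gated cells, 0 with voom, and 0 to 3 without single mice. For NOD against B6, Knl1 (-0.37), Pcna (-0.065), Stmn1 (-0.0949) and Tpx2 (-0.047) reversed without Aire-gated cells, and Cdkn1b (0.11), Mcm7 (-0.0010), Myc (-0.15), Stmn1 (-0.22) and Tpx2 (-0.22) with voom. For NOD against BALB/c, Pcna (-0.032) reversed without Aire-gated cells and Tpx2 (-0.25) with voom. Inside the Aire gate the 0 calls were 3, 4 and 2 with no filter for NOD against B6, NOD against BALB/c and BALB/c against B6, and 0 to 3, 0 to 5 and 0 to 1 without single mice.

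The 15 listed genes were 40 with no filter, 23 with DESeq2, 4 with the 90% limit and 7 to 16 without single mice. The Aire gate's mitotic share of 53.7% was 66.7% with 3 genes, 36.1% with 8 genes, 29.2% thinned, and 50.6% to 57.1% without single mice. Its S-phase share of 61.1% was 39.8% with 6 genes, 27.8% with 8, 11.3% thinned, and 58.4% to 63.3% without single mice. With 3 genes the tuft shares were 12.4% (mitotic) and 12.8% (S-phase). Without Hmgb2 the ratios of S-phase to mitotic UMIs were 0.497 (Aire) and 0.284 (ciliated).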
